A study of Mus musculus with 12 samples.

Results

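Sox9 was followed as 1 gene of the 16116 gene symbols in the deposited expression table, by its own row, over 12 libraries of sorted mouse hepatocytes. In this series Sox9 is both a gene that was deleted, from 1 or from both alleles, and a gene whose RNA was measured in hepatocytes with activated YAP. The series title names its subject as what Sox9 does in such hepatocytes. Where YAP was active and 1 allele remained, Sox9 RNA rose above the control in the experiment with deleted Mst kinases, and its difference did not pass the test in the experiment with a YAP mutant. Where both alleles were floxed, it fell below the level with 1 allele in both experiments.

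Sox9 encodes a transcription factor of the SoxE group that binds DNA through an HMG box, best known for its work in cartilage, testis and hair follicle. In the adult liver it is known as a marker of bile duct cells, is found in some hepatocytes next to the portal tract, and comes up in hepatocytes that take on biliary features after injury. YAP is a coactivator that works with TEAD transcription factors. The Hippo kinases Mst1 and Mst2 (gene symbols Stk4 and Stk3) keep it out of the nucleus through the Lats kinases, so that loss of the Mst kinases, or a mutant YAP that escapes phosphorylation, leaves YAP active.

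The 6 groups held 2 libraries each and fell into a Mst experiment and a YAP experiment. In the Mst experiment all mice carried floxed alleles of both Mst1 and Mst2 and the Cre reporter ROSA26-lsl-TdTomato. The group labelled TKO_Sox9 (Sox9-null Mst) was also Sox9 fl/fl and the group labelled DKO_Sox9_het (Sox9-heterozygous Mst) was Sox9 fl/+, and both received the virus AAV2/8-TBG-Cre. The group labelled Mst1_2_fl_GFP (floxed control) had no floxed Sox9 allele and received AAV2/8-TBG-GFP. In the YAP experiment the group labelled Sox9_cko (Sox9-null YAP) was Sox9 fl/fl and the group labelled Sox9_het (Sox9-heterozygous YAP) was Sox9 fl/+, and both received a virus for YAP S127A joined to GFP together with AAV2/8-TBG-Cre. Wild type mice given AAV2/8-TBG-GFP made up the group labelled WT_GFP (wild type control).

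Virus was given at 3 weeks of age, and cells were sorted 4 weeks later in the Mst experiment and 3 weeks later in the YAP experiment. Every gate was negative for the biliary surface protein Epcam and the leukocyte protein CD45. The Mst mutant cells were sorted by TdTomato, and the cells of the other 4 groups by GFP. TBG is a hepatocyte promoter, so Cre and YAP S127A were made in hepatocytes. No control received Cre, no group had a floxed Sox9 allele without YAP activation, and no activated group had both Sox9 alleles intact. A comparison with a control therefore holds Cre, YAP activation and the loss of at least 1 Sox9 allele together, and in the Mst experiment a different fluorescent gate as well, and these cannot be told apart. No label ties the libraries of a group to different mice, so the p-values measure the spread between libraries, which may be technical.

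In the GENCODE annotation of the mouse genome build GRCm38, Sox9 lies on the plus strand of chromosome 11, from position 112782224 to 112787760. It has 3 exons of 792, 254 and 3089 bases, and the coding sequence of 507 codons takes up 431, 254 and 836 bases of them. Exon 2 runs from 112783809 to 112784062 and is coding throughout. The panel reads 1 amplicon per gene. The sources used here name neither the place of the Sox9 amplicon nor the exons between the loxP sites, so a level is the abundance of 1 stretch of the transcript and not proof of an intact or a deleted coding sequence. The reference sequence at the joints of exon 2 is printed to show where spliced Sox9 RNA passes from one exon to the next. Each run holds 30 bases on either side of the joint on the plus strand, 5′ to 3′, with exon 2 in capitals.
Sox9 exon 1 to exon 2: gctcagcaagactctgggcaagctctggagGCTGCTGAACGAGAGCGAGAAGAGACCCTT
Sox9 exon 2 to exon 3: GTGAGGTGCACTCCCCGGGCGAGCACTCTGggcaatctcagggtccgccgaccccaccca
The first joint brings together positions 112782986 to 112783015 and 112783809 to 112783838, and the second 112784033 to 112784062 and 112784672 to 112784701.

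Levels are log2 CPM, deposited as such and relative to the reads of each library, and Sox9 was compared only with itself across libraries, since 1 amplicon per gene gives no common scale between genes. Read depth per library is not known from the table. The linear values summed to 938683 to 1011693 in the 8 activated libraries and to 879620 to 920020 in the 4 control libraries. The 20 hepatocyte markers in the table were all kept, and their summed CPM lay between 55905 and 98322 across the libraries. The deposited values had been adjusted: gene by gene, the means of the floxed and the wild type control were nearly equal (98.9% of genes within 0.05), and they differed by -0.01 for Sox9. A difference from the control of one experiment is therefore in effect a difference from the mean of all 4 control libraries. As read from the values, the spread within groups had also been multiplied by a factor per gene, 1.82 for Sox9 against a median of 1.57. The size of this factor assumes that the original deviations lay on a grid of 0.005, which no source used here states. Such a rescaling bears on every SD, SE and p-value below.

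In the Mst experiment, Sox9 stood at 1.41 and 1.29 log2 CPM (2.66 and 2.44 CPM) in the Sox9-null libraries, at 6.47 and 6.0 (88.7 and 63.9 CPM) in the Sox9-heterozygous libraries, and at 4.33 and 3.13 (20.1 and 8.77 CPM) in the floxed controls. The 3 groups did not overlap: both heterozygous libraries were above both controls, and both null libraries below them. Under YAP S127A it stood at 2.28 and 2.62 log2 CPM (4.85 and 6.16 CPM) in the Sox9-null libraries, at 4.41 and 5.28 (21.2 and 38.9 CPM) in the Sox9-heterozygous libraries, and at 3.90 and 3.59 (14.9 and 12 CPM) in the wild type controls. The order of the 3 groups was the same and again without overlap. The floxed controls were the pair of libraries furthest apart, and the lower heterozygous YAP library lay close above the higher floxed control library.

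The group means were 1.35 ± 0.09 in Sox9-null Mst, 6.23 ± 0.33 in Sox9-heterozygous Mst and 3.73 ± 0.85 log2 CPM in floxed control cells (SD, n = 2 each). They were 2.45 ± 0.24 in Sox9-null YAP, 4.84 ± 0.62 in Sox9-heterozygous YAP and 3.74 ± 0.22 log2 CPM in wild type control cells (SD, n = 2 each). From the highest mean to the lowest, the order was Sox9-heterozygous Mst, Sox9-heterozygous YAP, the controls, Sox9-null YAP and Sox9-null Mst. Among neighbours in this order, no libraries overlapped except those of the 2 controls. The steps between the heterozygous YAP group and the wild type control and between the null YAP group and that control did not pass the test across all genes. The steps between the heterozygous groups and between the null groups run across experiments, and they were compared only through the differences of each group from its control. The plot of Sox9 in each library shows these levels.

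**Figure D1:**
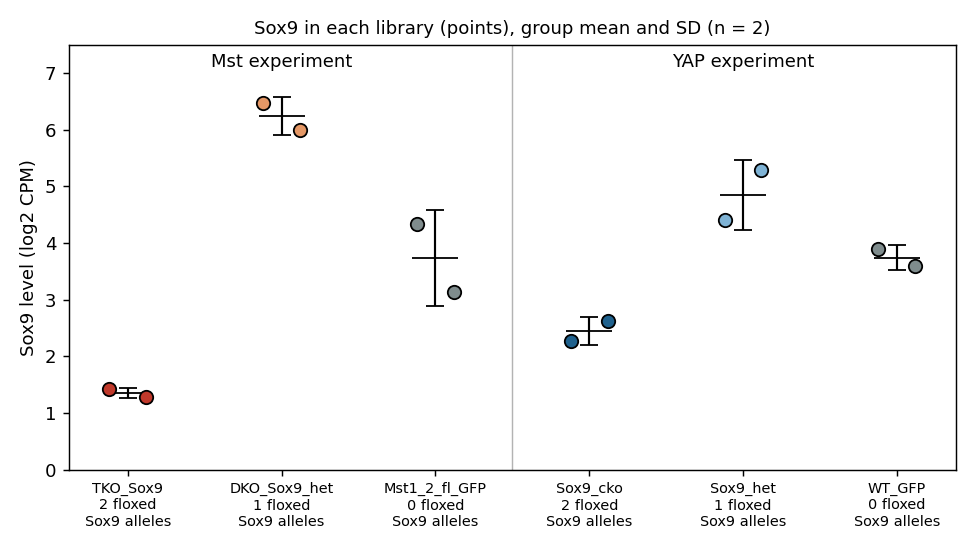
Sox9 level in log2 CPM (vertical axis) in each of the 12 libraries (points), with the mean and SD of each group of 2 (bars), by experiment and number of floxed Sox9 alleles (horizontal axis). In both experiments the null libraries lie below the control libraries and the heterozygous libraries above them, with the widest gap in the Mst experiment, between null libraries at 1.41 and 1.29 and heterozygous libraries at 6.47 and 6.0.

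The first comparison asks how Sox9 RNA stood in hepatocytes with active YAP and 1 intact Sox9 allele. In the Mst experiment it rose by 2.50 ± 0.38 (log2 difference, SE), which is 5.66-fold higher in Sox9-heterozygous Mst than in floxed control cells (95% confidence interval 3.24 to 9.91, limma, adjusted p = 0.000815). In that comparison 3.45% of the 10681 genes kept for testing were called higher, and by size of the increase Sox9 was in place 95. Without the first floxed control library the difference was 3.10, and without the second it was 1.90, the call holding both times. In bulk RNA such a difference does not tell more cells with Sox9 from more Sox9 RNA per cell.

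Under YAP S127A the difference had the same sign but was not called. Sox9 was 2.15-fold higher in Sox9-heterozygous YAP than in wild type control cells (log2 difference 1.10 ± 0.38 SE, 95% confidence interval 0.30 to 1.91, limma, adjusted p = 0.225), in a comparison where 1.4% of genes were called higher. The interval runs from 1.23-fold to 3.76-fold. Computed on deviations before the inferred rescaling within groups, the same difference had an adjusted p of 0.0120 with limma. The gene of YAP itself, Yap1, was at 7.45 and 8.01 log2 CPM in Sox9-null YAP, 7.62 and 7.29 in Sox9-heterozygous YAP and 6.64 and 6.44 in wild type control libraries. All 4 YAP libraries were above both controls. Yap1 rose by 1.19 ± 0.24 in the null group (limma, adjusted p = 0.00556), and its difference in the heterozygous group was 0.91 ± 0.24 (limma, adjusted p = 0.0755). The labels do not say whether the Yap1 amplicon reads the construct.

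The difference between the experiments was 1.40 ± 0.54 on the log2 scale for activation with 1 Sox9 allele, Mst minus YAP (95% confidence interval 0.26 to 2.54, limma, adjusted p = 0.542). It did not pass the test, in a comparison in which 0.197% of genes did. Because the control means were nearly equal, this is in effect the difference between the heterozygous groups. Its SE also counts the spread of the control libraries, so the p-value does not measure the spread of the heterozygous groups alone. The same limit holds for the Mst minus YAP difference with no Sox9 allele. The amount of active YAP, the week of sorting, the virus and the gate all differed between the experiments and cannot be told apart. The deleted kinase genes did not show the deletion at their amplicons: Stk4 was at 4.49 and 4.09 log2 CPM in Sox9-null Mst, 4.25 and 4.74 in Sox9-heterozygous Mst and 4.89 and 4.82 in floxed control libraries. Its differences from the control, -0.56 in the null and -0.36 in the heterozygous group, were not called, and neither were those of Stk3, 0.31 and 0.22 (limma, lowest adjusted p of the 4 = 0.222). The sources used here do not place these amplicons relative to the floxed parts.

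The second comparison sets cells with both Sox9 alleles floxed against the controls, which have both alleles intact and inactive YAP. With the Mst kinases deleted, Sox9 fell by 2.38 ± 0.38 on the log2 scale (95% confidence interval -3.19 to -1.58, limma, adjusted p = 0.000873), to 19.2% of the level in the floxed control. Here 0.88% of genes were called lower, and Sox9 was in place 31 by size of the decrease. Without the first floxed control library the difference was -1.78 and without the second -2.98, again with the call holding. In the YAP experiment the level in Sox9-null cells was 40.8% of that in wild type control cells, a log2 difference of -1.29 ± 0.38 (95% confidence interval -2.10 to -0.48), which missed the threshold (limma, adjusted p = 0.0519) in a comparison where 0.477% of genes were called lower. It passed under 6 other settings: with quantile normalization (-1.68, limma, adjusted p = 0.0235), with equal library medians (-1.55, limma, adjusted p = 0.0334), with a stricter filter, before the rescaling, with a replicate block and with all 4 controls together. It also passed with some single libraries left out. The Mst minus YAP difference was -1.09 ± 0.54 (95% confidence interval -2.23 to 0.05, limma, adjusted p = 0.784). In that comparison 0.272% of genes were called.

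Sox9 was at 1.41 and 1.29 log2 CPM in Sox9-null Mst and at 2.28 and 2.62 in Sox9-null YAP libraries. Genes with 6 identical values in an experiment had a 95th percentile of -0.45 log2 CPM in the Mst and -0.15 in the YAP experiment. Tspan8, however, was at 2.44 in all 6 Mst libraries, so a fixed value can lie above the Sox9-null Mst level. The null levels, and the percentages that rest on them here and below, may hold such a value. Other sources are cells that kept an allele, other cells in the sort and transcripts read outside the deleted part. Which of these applied was not tested.

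The third comparison is loss of the second Sox9 allele among cells with active YAP. It uses no control mean, so its size does not depend on how the control means were adjusted. Its SE and p-values still draw on the spread over all 12 libraries, the controls included. In the Mst experiment Sox9 fell by 4.88 ± 0.38 on the log2 scale (95% confidence interval -5.69 to -4.08, limma, adjusted p = 6.31e-06), to 3.38% of the Sox9-heterozygous level (1.93% to 5.92%), or 29.5-fold lower. This was the largest decrease of any of the 10681 genes there, in a comparison in which 0.0281% of genes, 3 in all, were called lower, the others being Tmub2 and Sec22a. Under YAP S127A it fell by 2.39 ± 0.38 (95% confidence interval -3.20 to -1.59, limma, adjusted p = 0.0132), to 19.0% of the Sox9-heterozygous level (10.9% to 33.3%). There 0.0562% of genes, 6 in all, were called lower, and Sox9 was in place 7 by size. This call was lost without the second Sox9-heterozygous YAP library (-1.96, limma, adjusted p = 0.361), without the first Sox9-null YAP library (-2.22, limma, adjusted p = 0.181) and without the second (-2.57, limma, adjusted p = 0.0713).

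The Mst minus YAP difference in this loss was -2.49 ± 0.54 on the log2 scale (95% confidence interval -3.63 to -1.35), with an unadjusted p of 0.000300 and a Benjamini-Hochberg adjusted p of 0.279 in limma, so it did not pass the test across all genes. In that comparison 0% of genes were called, and 322 genes (3.01%) had an unadjusted p under 0.05 in limma. By unadjusted p, Sox9 was in place 11. The plot of the Sox9 differences sets all 9 comparisons side by side.

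**Figure D2:**
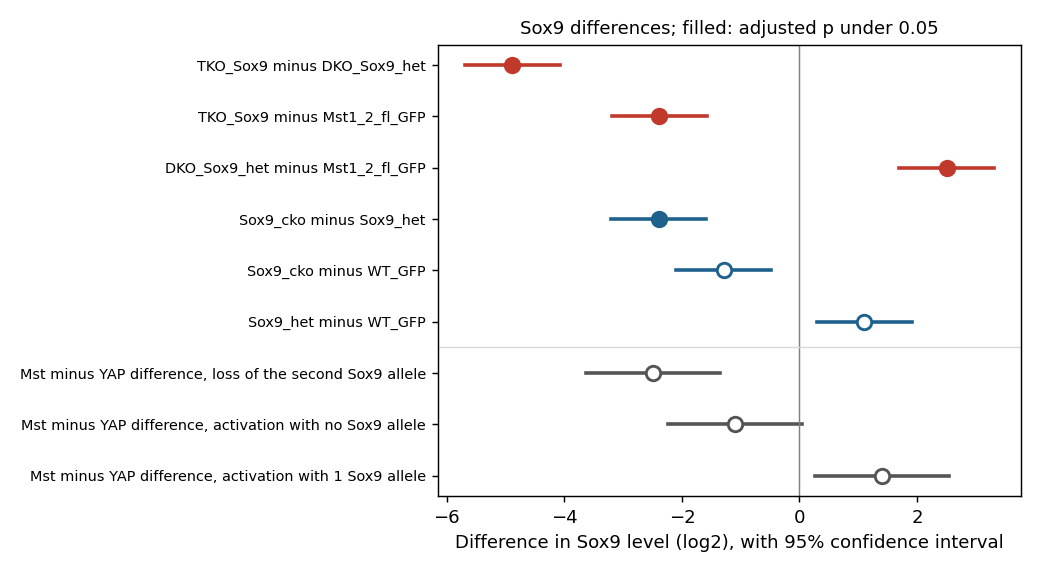
Differences in Sox9 level (log2, horizontal axis) with 95% confidence intervals for the 6 comparisons within an experiment (upper rows) and the 3 Mst minus YAP differences (lower rows), filled where the adjusted p was under 0.05. The 4 filled points are the 3 comparisons of the Mst experiment and the second-allele comparison of the YAP experiment.

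The pattern of Sox9, null below control below heterozygous with no overlap between libraries, was counted over the kept genes. It was taken from the Sox9 values themselves. That Sox9 holds it was thus set beforehand, and the counts are a description. Of the kept genes, 29 (0.272%) had it in the Mst experiment, 17 (0.159%) in the YAP experiment, and 1 gene, Sox9 itself, in both. With quantile normalization or with equal library medians 2 genes had it in both, and on deviations before the rescaling 3 genes, Sox9 among them each time. The controls were made equal between experiments before deposition, so the 2 counts are not independent. The decrease with the second allele was shared with few genes: 8 fell by at least 1 on the log2 scale in both experiments, and 2 by at least 2, Sox9 and Tmub2.

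Besides Sox9, 3 genes were called in both second-allele comparisons, and all 3 lie on chromosome 11, as Sox9 does. Tmub2, which encodes a membrane protein with a ubiquitin-like domain, was at 0.62 and 0.40 log2 CPM in Sox9-null Mst against 4.90 and 4.90 in Sox9-heterozygous Mst libraries, and at 0.68 and 0.68 in Sox9-null YAP against 5.13 and 4.72 in Sox9-heterozygous YAP libraries. It was thus at the control level (4.98 and 4.98 in wild type control libraries) in the heterozygous groups and far below it in the null groups. Vamp2, a SNARE protein of vesicle fusion, rose by 3.51 in the Mst and by 4.92 in the YAP experiment, and 2610507I01Rik by 3.06 and by 4.65 (limma, highest adjusted p of the 4 = 0.0155). Both stood below the controls in Sox9-heterozygous YAP libraries, Vamp2 at -0.81 and -0.93 log2 CPM against 3.88 and 2.87. In the Mst experiment it was the Sox9-null group that was called against the control. There Vamp2 was higher by 2.26 and 2610507I01Rik by 2.35 (limma, adjusted p = 0.0147 and 0.00372). Their differences in Sox9-heterozygous Mst, -1.25 and -0.71, were not called. Tmub2 lies at 102284931 to 102289237, Vamp2 at 69088490 to 69092384 and 2610507I01Rik at 59199836 to 59202385 (GRCm38), so none is next to Sox9. Whether these genes differ by the deletion or by DNA that came with the floxed allele was not tested.

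**Figure D3:**
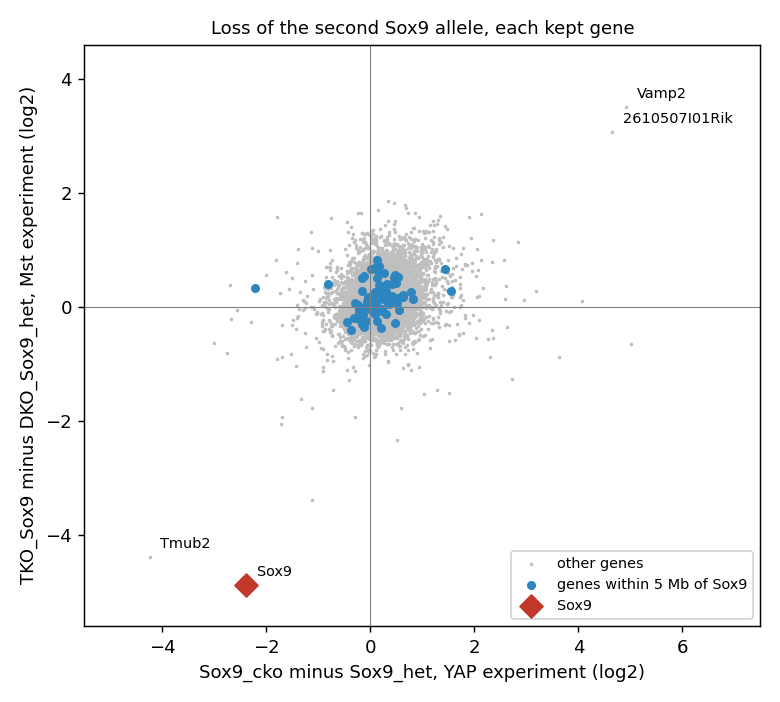
Log2 difference with loss of the second Sox9 allele for each of the 10681 kept genes, Sox9_cko minus Sox9_het in the YAP experiment (horizontal axis) and TKO_Sox9 minus DKO_Sox9_het in the Mst experiment (vertical axis), with Sox9 as a diamond and kept genes within 5 Mb of it in blue. Sox9 (-2.39 and -4.88) and Tmub2 stand apart at the lower left, Vamp2 and 2610507I01Rik at the upper right.

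The genes most like Sox9 across the libraries were found by Pearson's correlation of log2 CPM over the 12 libraries, among 582 genes whose group means spanned at least 2 on the log2 scale. The libraries share groups, table and adjustment, so the values are a description. No gene reached 0.8. The 8 highest were Tmub2 (r = 0.79), Mettl7a1 (0.77), Cyb561 (0.73), Sec22a (0.63), Elovl3 (0.56), Serpina4-ps1 (0.54), Ces2b (0.51) and Ugt2b38 (0.49), against a median of -0.18. The 4 lowest were Vamp2 (-0.72), Lrp6 (-0.71), Rnf187 (-0.65) and 2610507I01Rik (-0.65). Of these 12 genes, 5 lie on chromosome 11: Tmub2, Cyb561, Vamp2, Rnf187 and 2610507I01Rik. Of the 582 candidates, 571 were found in the annotation by symbol, and 8.41% of those lie on chromosome 11. The 12 were picked by their values, so the shares are given as a description.

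Cyb561, a membrane protein that carries electrons, came close to the course of Sox9. It was at 3.73 and 4.06 log2 CPM in Sox9-null Mst, 5.61 and 6.05 in Sox9-heterozygous Mst and 4.01 and 3.19 in floxed control libraries. In the YAP experiment it was at 2.31 and 2.60 in Sox9-null, 3.85 and 4.45 in Sox9-heterozygous and 3.91 and 3.34 in wild type control libraries. The heterozygous libraries were thus the highest in the Mst experiment, where null and control libraries overlapped, while in the YAP experiment the null libraries were the lowest and the other 2 groups overlapped. Sec22a, a protein of vesicle traffic, followed Sox9 in the 6 Mst libraries (r = 0.87) and ran against it in the 6 YAP libraries (r = -0.72).

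**Figure D4:**
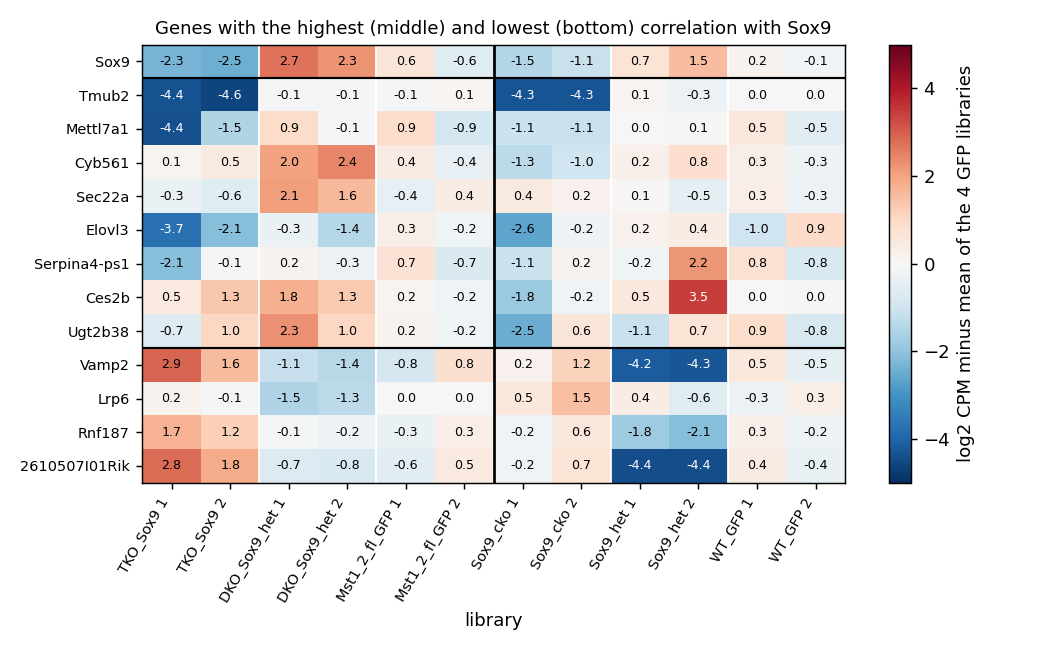
Log2 CPM minus the mean of the 4 GFP libraries, by color and number, for Sox9 (top row), the 8 genes with the highest correlation with it (middle rows) and the 4 with the lowest (bottom rows) in each of the 12 libraries (columns). Tmub2 is low in all 4 null libraries and near the controls elsewhere, while the rows from Elovl3 to Ugt2b38 differ widely between libraries of the same group.

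Genes around Sox9 were looked at because the floxed allele was introduced there. Within 5 Mb on either side GRCm38 has 227 annotated genes, of which 113 were in the table and 74 were kept. No annotated gene overlapped Sox9, and the nearest kept genes were Slc39a11 at 457 kb, Sstr2 at 832 kb and Cog1 at 861 kb. With loss of the second allele in the Mst experiment, 0 of the 74 were called (limma), against 0.0468% of all genes, and their differences ran from -0.40 to 0.83 with a median of 0.14 against 0.09 for all genes. In the YAP experiment 1 of the 74 was called, against 0.169% of all genes: Ube2o, which encodes a ubiquitin ligase and lies at 116537740 to 116581447, fell by 2.22 ± 0.33 (limma, adjusted p = 0.00748).

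Against the controls, more neighbours were called, nearly all higher. Most calls over all genes were higher in these comparisons too, so this direction is not particular to the neighbours. Counts were 9 higher and 0 lower in Sox9-null Mst (7.76% of all genes called), 4 higher and 0 lower in Sox9-heterozygous Mst (4.25%), 5 higher and 1 lower in Sox9-null YAP (7.12%) and 2 higher and 0 lower in Sox9-heterozygous YAP (1.57%). Myo15b, an unconventional myosin, was called in all 4, with log2 differences of 1.66, 1.48, 2.33 and 1.74 in that order. Galk1, the galactokinase, rose by 1.76, 1.81 and 1.22 in the first 3. The others called in at least 1 comparison were Sstr2, a somatostatin receptor, Ttyh2, Fads6, Slc16a5, Caskin2, Tsen54, Trim47 and Rhbdf2. None of the 74 took the course of Sox9, since no other gene had that order in both experiments in the deposited values.

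The genes of bile duct and progenitor cells, among which Sox9 is counted as a marker, were compared with it over the same groups. Of 27 listed genes besides Sox9, 25 were in the table and 17 passed the filter on low values. With the second allele lost, 0 of 17 were called in the Mst experiment, where 0.0468% of all genes were (limma). In the YAP experiment 0 of 17 were called, where 0.169% of all genes were (limma). At shares this low a list of this size would hardly hold a call, so these counts cannot tell it from all genes. Their median log2 difference was 0.24 against 0.09 for all genes in the Mst and 0.34 against 0.15 in the YAP experiment. At an unadjusted p under 0.05 in limma there were 3 of 17 in the Mst experiment (5.89% of all genes) and 6 of 17 in the YAP experiment (6.62% of all genes). Against the controls, 9 rose and 1 fell in Sox9-null Mst (median 1.82, 6.88% of all genes called higher and 0.88% lower), 7 rose and 1 fell in Sox9-heterozygous Mst (median 0.63, 3.45% higher and 0.796% lower), 7 rose in Sox9-null YAP (median 0.97, 6.64% higher) and 6 rose in Sox9-heterozygous YAP (median 0.93, 1.4% higher).

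Spp1, which encodes osteopontin, a secreted protein of bile duct and progenitor cells, was at 11.85 and 11.80 log2 CPM in Sox9-null Mst, 11.59 and 11.56 in Sox9-heterozygous Mst and 7.37 and 7.45 in floxed control libraries. Under YAP S127A it was at 10.28 and 10.15 in Sox9-null, 10.71 and 11.22 in Sox9-heterozygous and 8.16 and 6.78 in wild type control libraries. All activated libraries were above the controls, and the null libraries were above the heterozygous ones in the Mst and below them in the YAP experiment. Its difference with the second allele was 0.25 ± 0.38 in the Mst experiment (limma, adjusted p of 1.0) and -0.75 ± 0.38 in the YAP experiment (limma, adjusted p = 0.793).

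Others of the list that rose in all 4 comparisons with a control were Bicc1, an RNA-binding protein whose loss gives cystic kidneys in mice, Pkhd1, which encodes fibrocystin, and the sodium-glucose cotransporter gene Slc5a1. Bicc1 rose by 4.81 in Sox9-null Mst, 4.19 in Sox9-heterozygous Mst, 4.43 in Sox9-null YAP and 2.98 in Sox9-heterozygous YAP on the log2 scale. Pkhd1 rose by 2.32, 1.34, 3.23 and 1.96 in these groups. The keratin gene Krt23 rose by 4.09 and 3.91 in the null and heterozygous Mst groups. Lgr5, a Wnt-related receptor known in hepatocytes around the central vein, was the gene that fell, by 2.25 in Sox9-null Mst and 2.70 in Sox9-heterozygous Mst.

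The defining markers of mature bile duct cells stayed low. Of 13 such markers, 5 (Krt7, Cftr, Sctr, Anxa13 and Muc1) were under a log2 CPM of 1 in all 12 libraries. Krt19, the keratin most used to mark bile ducts, reached 1 in a single library, the first of Sox9-heterozygous YAP (1.53). Without Spp1 the summed CPM of the defining markers was 144 to 155 in Sox9-null Mst, 128 to 144 in Sox9-heterozygous Mst and 53.1 to 67.1 in floxed control libraries, and 93.8 to 111 in Sox9-null YAP, 76.7 to 109 in Sox9-heterozygous YAP and 50.9 to 68.4 in wild type control libraries. The sums were highest in the Sox9-null Mst group, where Sox9 was lowest.

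Epcam, against which the cells had been sorted, was at 3.14 and 2.14 log2 CPM in Sox9-heterozygous YAP libraries and at 0.83 and 0.83 in wild type control libraries, an increase of 1.81 ± 0.41 (limma, adjusted p = 0.0349). It was at 1.51 and 1.92 in Sox9-null YAP libraries and between 0.82 and 1.05 in the 6 libraries of the Mst experiment. The Sox9-heterozygous YAP group was thus the one with the most Epcam. The part of Epcam-expressing cells in the Sox9 levels was not tested.

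Of 19 other Sox genes listed, 12 were in the table and 6 passed the filter. Sox8 and Sox10, the other SoxE genes, were not among the 12. Sox4, a SoxC factor also known from the developing bile duct, was the 1 gene called against the controls, in all 4 comparisons. It was at 7.0 and 6.89 log2 CPM in Sox9-null Mst, 7.08 and 6.88 in Sox9-heterozygous Mst and 1.62 and 1.92 in floxed control libraries. Its level was 6.80 and 7.45 in Sox9-null YAP, 5.23 and 6.65 in Sox9-heterozygous YAP and 2.07 and 1.49 in wild type control libraries. All activated libraries stood above the controls, those of the null groups included. The increases were 5.18, 5.21, 5.35 and 4.16 in these 4 activated groups, and loss of the second allele gave a difference of -0.04 ± 0.37 in the Mst and 1.19 ± 0.37 in the YAP experiment (limma, adjusted p of 1.0 and 0.401). Sox5 and Sox6, the SoxD partners of Sox9 in cartilage, were not called in any of the 6 comparisons, with differences between -0.61 and 0.40.

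Of 24 genes listed as Sox9 targets in cartilage, gonad and fibroblasts, 10 passed the filter, and 0 were called with loss of the second allele in either experiment (limma), where 0.0468% of all genes in the Mst and 0.169% in the YAP experiment were. The median difference was 0.26 in the Mst and -0.20 in the YAP experiment, against 0.09 and 0.15 for all genes, with 1 of 10 in the Mst and 0 of 10 in the YAP experiment at an unadjusted p under 0.05 (5.89% and 6.62% of all genes). The same 4 genes rose against the control in all 4 comparisons: Ctgf, Cyr61, Spp1 and Ptgds, the prostaglandin D synthase gene that Sox9 is known to act on in the testis. Ctgf and Cyr61 encode matrix-associated proteins and are also the best known YAP targets. Ptgds rose by 4.93 in Sox9-null Mst, 4.69 in Sox9-heterozygous Mst, 1.82 in Sox9-null YAP and 2.18 in Sox9-heterozygous YAP.

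Of 27 listed YAP and TAZ targets, 24 passed the filter. Among Mst mutant cells 9 rose and 1 fell in Sox9-null cells (6.88% of all genes higher, 0.88% lower) and 8 rose and 1 fell in Sox9-heterozygous cells (3.45% higher, 0.796% lower). In the YAP experiment 16 rose in Sox9-null cells (6.64% of all genes) and 4 in Sox9-heterozygous cells (1.4%). Ctgf was at 7.40 and 7.84 log2 CPM in Sox9-null Mst, 7.22 and 7.02 in Sox9-heterozygous Mst and 0.90 and 0.73 in floxed control libraries. It was at 6.01 and 4.73 in Sox9-null YAP, 5.19 and 5.48 in Sox9-heterozygous YAP and 0.58 and 1.11 in wild type control libraries. The gene that fell in both Mst groups was Nt5e, an ecto-nucleotidase, by 3.73 in each. With the second allele lost, 0 of 24 were called in either experiment (limma), where 0.0468% of all genes in the Mst and 0.169% in the YAP experiment were. Their median was 0.21 against 0.09 for all genes in the Mst experiment, and 0.76 against 0.15 in the YAP experiment, above the median of all genes. At an unadjusted p under 0.05 there were 2 of 24 in the Mst experiment (5.89% of all genes) and 6 of 24 in the YAP experiment (6.62%). Ajuba, a LIM protein that binds Lats kinases, rose by 3.56, 3.16, 2.88 and 1.97 in Sox9-null Mst, Sox9-heterozygous Mst, Sox9-null YAP and Sox9-heterozygous YAP.

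The Notch pathway is known to act upstream of Sox9 in bile duct formation, and of 21 listed genes 10 passed the filter. In Sox9-null Mst cells 4 rose (6.88% of all genes were called higher): the receptor gene Notch1 (2.0), the ligand genes Dll1 (1.59) and Jag1 (1.38) and the target gene Hes1 (1.73). In Sox9-heterozygous Mst cells Notch1 rose by 1.72 (3.45% of all genes higher), and in Sox9-null YAP cells Jag1 (2.58) and Hes1 (2.21) rose (6.64%). In Sox9-heterozygous YAP cells 0 were called (1.57% of all genes), with 1 of 10 at an unadjusted p under 0.05 in limma (10.6% of all genes). None was called with loss of the second allele (limma), against 0.0468% of all genes in the Mst and 0.169% in the YAP experiment. Jag1 differed by 0.49 ± 0.38 in the Mst and 1.33 ± 0.38 in the YAP experiment and Hes1 by 0.54 ± 0.50 and 1.53 ± 0.50. At an unadjusted p under 0.05 there were 0 of 10 in the Mst experiment (5.89% of all genes) and 3 of 10 in the YAP experiment (6.62%). Notch2, the receptor most tied to bile duct formation, was not called in any of the 6 comparisons.

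**Figure D5:**
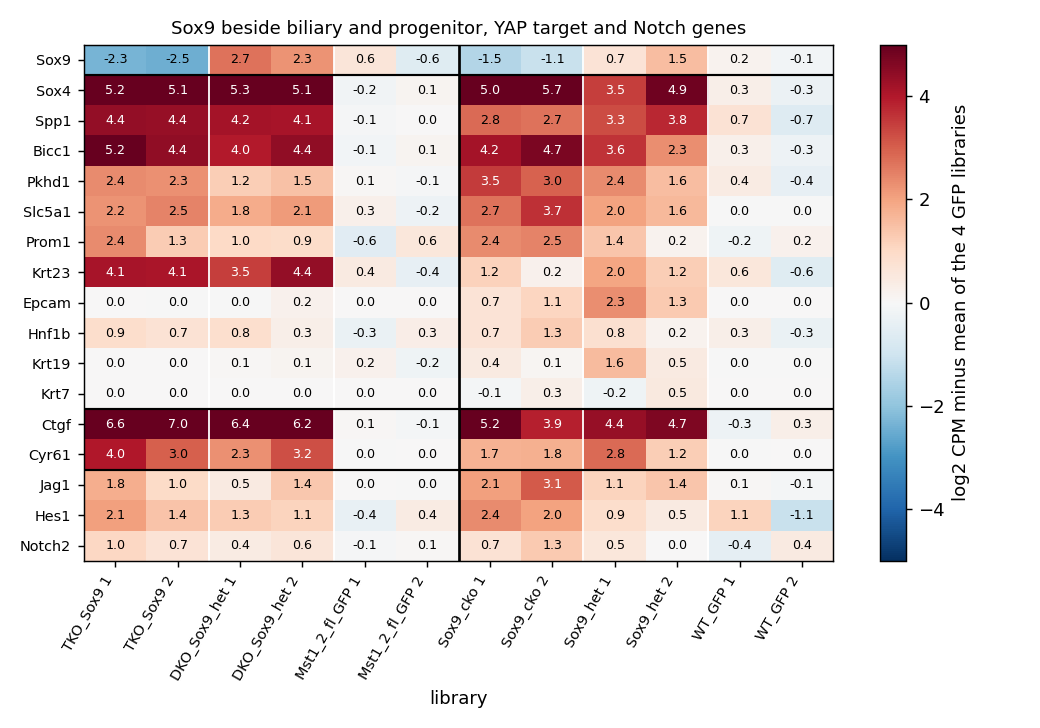
Log2 CPM minus the mean of the 4 GFP libraries, by color and number, for Sox9 (top row), 11 genes of the biliary and progenitor list, the YAP targets Ctgf and Cyr61, and 3 Notch pathway genes (rows) in each of the 12 libraries (columns). Sox4, Spp1, Bicc1 and Ctgf are high in all 8 activated libraries, including the 4 in which Sox9 is below the controls.

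Among markers of other cells in the liver, mainly the endothelial ones were called against the controls. Of 18 endothelial markers 17 were kept, and 11 rose in Sox9-null Mst (6.88% of all genes), 8 in Sox9-heterozygous Mst (3.45%), 6 in Sox9-null YAP (6.64%) and 2 in Sox9-heterozygous YAP cells (1.4%). Their summed CPM was 438 to 482, 415 to 548, 207 to 389 and 138 to 222 in these groups, against 60.4 to 64.0 in floxed control and 41.9 to 98.1 in wild type control libraries. Of 12 macrophage and leukocyte markers kept, 2 rose in Sox9-null Mst cells (6.88% of all genes). In Sox9-heterozygous Mst, Sox9-null YAP and Sox9-heterozygous YAP cells 0 of them were called (4.25%, 7.12% and 1.57% of all genes). Of 8 stellate and fibroblast markers kept, 1, Dcn, rose in Sox9-null Mst (6.88%) and in Sox9-heterozygous Mst (3.45%). In Sox9-null YAP and Sox9-heterozygous YAP 0 of the 8 were called (7.12% and 1.57%). None of these markers and none of the 20 hepatocyte markers was called with loss of the second allele (limma), where 0.0468% of all genes in the Mst and 0.169% in the YAP experiment were. At an unadjusted p under 0.05 there were 2 endothelial markers in the YAP experiment (6.62% of all genes) and 1 macrophage and leukocyte marker in the Mst experiment (5.89%). With loss of the second allele the median difference of the 17 endothelial markers was -0.02 in the Mst experiment, against 0.09 for all genes. There 8 were higher and 9 lower. In the YAP experiment it was 0.715 against 0.15, and all 17 were higher. The part of such cells in the Sox9 differences from the controls was not tested.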

How the data were processed

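RNA from 12 sorted samples was read with the Ion AmpliSeq Transcriptome Mouse panel, per the labels' protocols. The authors deposited 1 table of log2 CPM (relative to the reads of each library). Aligner, build and adjustment were not given in the sources used here. As read from the values, activated groups differed from each other by multiples of 0.005, and from the mean of all 4 controls by multiples of 0.0025 for 100% of kept genes, against 26.9% for Sox9_het minus WT_GFP. Within groups, each gene had a single step size that divided its deviations, for 10671 of 10671 genes (tolerance 1e-07). The rescaling factor was this step divided by 0.005, the grid assumed for the original deviations. Depth is unknown, so no counting interval is given.

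Groups came from the labels. The filter kept 10681 genes that reached a log2 of 1 in 2 or more libraries. Group means were fitted over all 12 libraries with limma 3.58.1 (R 4.3.3, trended variance), with calls at adjusted p under 0.05 (Benjamini-Hochberg) over all kept genes, two-sided. The fit was tested on simulated data. Members and gene lists were chosen with earlier results of these data known. Named were Sox9, Stk4, Stk3, Yap1, the 8 highest and 4 lowest correlations, neighbours called at least once or nearest, up to 4 called members per list and comparison, and a few preset genes. Replicate numbers were not used to pair the libraries in the main fit. Alternatives covered scaling, filter, variance, rescaling, block, control and single libraries.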

Additional observations from a re-analysis of the deposited data

How the results depend on the processing

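Sox9 kept its sign in all 9 comparisons under every alternative run, and its 3 calls in the Mst experiment held under all of them. Sox9_cko minus WT_GFP passed the threshold with quantile normalization (-1.68), equal library medians (-1.55), a stricter filter (-1.29, adjusted p = 0.0497), deviations before the rescaling (-1.29, 0.00215) and, chosen after seeing the data, all 4 GFP libraries as the control (-1.29, 0.0124; limma throughout). Sox9_cko minus Sox9_het lost its call with no filter (-2.39, adjusted p = 0.232) and with a constant prior variance (-2.39, 0.0606). Before the rescaling, Sox9_het minus WT_GFP (1.10, 0.0120) and the Mst minus YAP differences in activation with 1 allele (1.40, 0.0345) and in second-allele loss (-2.49, 0.0125) passed. The cause of these changes was not tested.

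With single libraries left out, the ranges were 0.67 to 1.54 for Sox9_het minus WT_GFP, -1.46 to -1.12 for Sox9_cko minus WT_GFP, -2.83 to -1.96 for Sox9_cko minus Sox9_het, 1.90 to 3.10 for DKO_Sox9_het minus Mst1_2_fl_GFP, -2.98 to -1.78 for TKO_Sox9 minus Mst1_2_fl_GFP, -5.12 to -4.65 for TKO_Sox9 minus DKO_Sox9_het, and 0.80 to 2.0, -1.69 to -0.49 and -2.93 to -2.05 for the differences between experiments. A lone library left in a group is assumed to vary like the other groups.

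Same-numbered libraries deviated against each other (r of -0.64 to -0.06), most in the Mst experiment, so same numbers did not go with shared deviations. Deviations were still related across groups there, and the main fit treats all libraries as independent. With a replicate block Sox9_cko minus WT_GFP passed (-1.29, limma, adjusted p = 0.0315), no other call on Sox9 changed, and genes called for Sox9_cko minus Sox9_het went up to 39 from the 18 without it; the Mst minus YAP differences had 35, 50 and 5.

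Genes called before the rescaling and with no filter were 1213 and 72 for Sox9_het minus WT_GFP (168 as reported), 2911 and 369 for Sox9_cko minus WT_GFP (760), 445 and 5 for Sox9_cko minus Sox9_het (18), 2075 and 189 for DKO_Sox9_het minus Mst1_2_fl_GFP (454), 2786 and 416 for TKO_Sox9 minus Mst1_2_fl_GFP (829), 181 and 2 for TKO_Sox9 minus DKO_Sox9_het (5), and 619 and 3 (21), 552 and 8 (29) and 61 and 0 (0) between experiments. With single libraries left out the first 6 ran over 92 to 291, 328 to 1003, 4 to 128, 189 to 524, 348 to 981 and 3 to 20. With the pooled control the 4 control comparisons had 474, 1686, 1577 and 1021 calls for Sox9_het, Sox9_cko, TKO_Sox9 and DKO_Sox9_het. Other counts moved by over 1.5 times were those of Sox9_cko minus WT_GFP with quantile normalization (449), equal medians (484) or its own experiment alone (483), of Sox9_cko minus Sox9_het with a constant prior (6) or its experiment alone (9), of TKO_Sox9 minus DKO_Sox9_het alone (2), and of the activation differences with a constant prior (3 and 7). The order of Sox9 in both experiments was shared by 2 genes with quantile normalization or equal medians and by 3 before the rescaling, Sox9 included, against 1 as reported; these were added after seeing the data. The correlation of Sec22a with Sox9 was -0.72 in the YAP experiment.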

Other observations

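Loss of the second Sox9 allele in the YAP experiment came with a further set of called genes besides Sox9, Tmub2, Vamp2, 2610507I01Rik, Ube2o and Rnf187, named here after their values were seen. The immediate early genes Egr1 and Fos fell by 2.67 and 2.57 on the log2 scale in Sox9_cko relative to Sox9_het (limma, adjusted p = 0.000366 and 0.0274), and the pancreatic elastase gene Cela1 fell by 1.74. H19, an imprinted long RNA abundant in fetal liver, rose by 2.83, Cyp4a31, a fatty acid hydroxylase gene, by 2.73, G0s2, an inhibitor of triglyceride breakdown, by 2.29, and Csf1, the macrophage growth factor gene, by 1.78 (limma, highest adjusted p of the 4 = 0.0323). In the Mst experiment the differences of TKO_Sox9 from DKO_Sox9_het were -0.22 for Egr1, -0.05 for Fos, 0.23 for Cela1, 1.14 for H19, -1.26 for Cyp4a31, -0.88 for G0s2 and 0.12 for Csf1, none of them called. The sign was thus the same as in the YAP experiment for Egr1, Fos, H19 and Csf1 and the opposite for Cela1, Cyp4a31 and G0s2. The test of the difference between the experiments called 0 genes in limma, so none of these is shown to differ between them.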
